A study of Mus musculus with 5 samples.

Results

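The 10 genes described here encode chemokines made by microglia and macrophages: Cxcl9, Cxcl10, Cxcl16, Ccl2, Ccl3, Ccl4, Ccl5, Ccl7, Ccl8 and Ccl12. They were taken as a named list from the 32285 genes of single-nucleus RNA sequencing (snRNA-seq) of mouse brain nuclei, and all 10 were found in the files. The 5 libraries each came from 1 mouse. In 2 of them (R241E) 1 copy of Cgas, which encodes a sensor of cytosolic DNA, carried the R241E change, a mutation that weakens the hold of nucleosomes on the enzyme, and in 3 (WT) both copies were wild type. All 5 mice carried the Tmem119-creERT2 driver, with which the allele is switched on by tamoxifen and which, by the study's account, acts chiefly in microglia and in macrophages of the brain. The study's methods name young adult mice, whereas a treatment text on aged mice given a STING inhibitor or vehicle accompanies every sample, and no label says which sample received either. The study's results name heterozygous mice as controls of this experiment and its methods name wild-type Cgas. The sample titles were followed here. The labels give hippocampus and the extraction text gives brain, and nuclei were sorted as positive for DAPI and negative for NeuN and Olig2, markers of neurons and of the oligodendrocyte lineage, before 10x Genomics 3′ libraries were made.

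Chemokines are small secreted proteins that bind receptors of the G-protein-coupled family and steer the movement of leukocytes along their gradients. Cxcl9 and Cxcl10 attract T and natural killer cells through Cxcr3, the monocyte chemoattractants Ccl2, Ccl7 and Ccl12 attract monocytes through Ccr2, and Ccl3, Ccl4 and Ccl5 attract monocytes and T cells. Many of these genes are silent in resting microglia and are switched on by interferon, by NF-kB, or by both.

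The members lie on 2 mouse chromosomes (build GRCm38, the build of the deposited counts). Cxcl9 (chr5:92321331-92328079) and Cxcl10 (chr5:92346638-92348889) are 18.6 kb apart. The monocyte chemoattractant group on chromosome 11 runs from Ccl2 (chr11:82035577-82037452) through Ccl7 (chr11:82045712-82047525) and Ccl12 (chr11:82101845-82103399) to Ccl8 (chr11:82115185-82116799), with gaps of 8.26, 54.3 and 11.8 kb. Ccl5 (chr11:83525778-83530518), Ccl3 (chr11:83647843-83649378) and Ccl4 (chr11:83648624-83664683) lie 1409 kb beyond Ccl8, and the RefSeq models of Ccl3 and Ccl4 overlap in part, so reads in the overlap can be told apart only by strand, and whether strand was used is not given in the sources used here. Cxcl16 (chr11:70454389-70459984) stands alone. The longest run shared by transcripts of any pair of members was 23 bases, between Ccl2 and Ccl7, so no member has a near-identical copy among the others.

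Promoter sequences were at hand for 5 members (RefSeq, GRCm38.p6, 250 bases before and 50 after the start of transcription). Those of Cxcl10, Cxcl9, Ccl12 and Ccl8 are printed because Cxcl10 and Ccl12 had the steepest difference and the highest level in R241E microglia, Cxcl9 is the neighbour of Cxcl10 with the same receptor, and Ccl8 was found mainly in macrophages. Each is written 5′ to 3′ in the direction of transcription, with capitals marking a match on either strand to one of 3 motifs. The first is AANNGAAA (N is any base), the core that interferon regulatory factors bind. The second is the core of the interferon-stimulated response element, GAAA and GAAA with 2 bases of any kind between them, which contains the first. The third, a form of the NF-kB site, is GGGA and CC with 4 bases of any kind between them.
Cxcl10 promoter (chr5:92348840-92349139, minus strand): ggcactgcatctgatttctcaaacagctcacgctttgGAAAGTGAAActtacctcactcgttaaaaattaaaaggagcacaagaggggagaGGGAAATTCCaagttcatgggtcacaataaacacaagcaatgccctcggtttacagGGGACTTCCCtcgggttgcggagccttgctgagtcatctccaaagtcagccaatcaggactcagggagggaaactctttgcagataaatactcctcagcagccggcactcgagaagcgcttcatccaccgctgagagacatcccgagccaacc
Cxcl9 promoter (chr5:92328030-92328329, minus strand): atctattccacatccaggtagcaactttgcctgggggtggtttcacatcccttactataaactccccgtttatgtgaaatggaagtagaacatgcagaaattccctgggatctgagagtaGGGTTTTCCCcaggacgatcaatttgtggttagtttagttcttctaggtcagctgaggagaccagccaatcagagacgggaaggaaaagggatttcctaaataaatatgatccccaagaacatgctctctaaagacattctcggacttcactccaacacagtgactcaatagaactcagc
Ccl12 promoter (chr11:82101595-82101894, plus strand): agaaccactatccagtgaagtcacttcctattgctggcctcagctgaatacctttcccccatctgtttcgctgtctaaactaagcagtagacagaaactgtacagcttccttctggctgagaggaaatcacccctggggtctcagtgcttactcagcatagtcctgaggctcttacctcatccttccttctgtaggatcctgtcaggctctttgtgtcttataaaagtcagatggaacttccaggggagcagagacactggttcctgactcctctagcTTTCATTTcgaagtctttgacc
Ccl8 promoter (chr11:82114935-82115234, plus strand): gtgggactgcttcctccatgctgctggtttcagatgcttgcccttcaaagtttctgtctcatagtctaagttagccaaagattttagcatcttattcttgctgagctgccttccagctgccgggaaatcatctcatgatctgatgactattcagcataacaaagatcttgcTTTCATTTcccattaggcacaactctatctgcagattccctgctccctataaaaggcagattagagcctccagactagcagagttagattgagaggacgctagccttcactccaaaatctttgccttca
The Cxcl10 window held the interferon-stimulated response element core starting 213 bases before the start, with the shorter core inside it, and NF-kB forms at 159 and 103 bases before the start, the latter matching on both strands. The Cxcl9 window held 1 NF-kB form, 130 bases before the start, and neither interferon motif. The Ccl12 window held the short interferon core on the opposite strand at position 29 after the start, and the Ccl8 window held it on the opposite strand 79 bases before the start. Among 32851 promoters of the same length, 23.9% held AANNGAAA, 3.44% held the response element core and 20.7% held the NF-kB form. These matches describe letters in a window and do not show binding.

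The files held 9748 nuclei, of which 9505 passed the filters, with medians of 2125.5 to 3364 unique molecular identifiers (UMIs, 1 per captured RNA molecule) per nucleus and library totals of 4183709 to 10130667 UMIs. Clusters were named from marker genes with the members left out of the clustering. Microglia numbered 1006 and 524 in the R241E libraries, against 926, 1471 and 1451 in WT (values are given in the order of the replicate numbers throughout). Border-associated macrophages, the resident macrophages of vessels and meninges, numbered 105 and 44 against 54, 59 and 80. Class names stand for nuclei that resemble the class. Microglial markers summed to 5236 and 5865 CPM (UMIs of a gene per 1000000 UMIs of the class in that library) in R241E microglia. In WT microglia they summed to 5895, 6098 and 6328 CPM. The macrophage marker list summed to 12022 to 12839 CPM in border-associated macrophages. There the microglial list summed to 1197 to 1574 CPM, with a UMI of 7 of its 8 genes, and Tmem119 was at 0. The libraries shared 13 cell barcodes in all. R241E and WT microglia fell largely into different clusters. The R241E nuclei lay mostly in clusters 1, 8 and 17, and the WT nuclei mostly in clusters 9, 10 and 11.

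In microglia, chemokine transcripts were scarce in WT and more abundant in R241E. Ccl12, Cxcl10, Ccl5, Ccl2, Cxcl16, Ccl7 and Ccl4 were higher in R241E, and Ccl3 did not pass the test. The members with the highest level in R241E were Ccl12 at 167 ± 26.3 CPM, Cxcl16 at 64.6 ± 20.2 CPM and Cxcl10 at 59.1 ± 18.1 CPM (SD, n = 2). The question was whether the R241E allele changes these genes in the cells in which the driver acts, and it was addressed with edgeR's quasi-likelihood test on UMIs summed per library. The low-count filter passed 8 of the 10 members, and 7 were called at an adjusted p under 0.05, all higher in R241E. Of all 12727 genes tested, 9.29% were called and 6.04% were called higher. Cxcl10, Ccl2 and Ccl7 had at most 3 UMIs in any WT library, and Ccl5 had 3, 10 and 9. Each of them passed the filter through its R241E counts, so its call adds nothing to its values. Neither the count nor the median over the members that passed is therefore read as support. The median log2 fold change of the 8 tested members was 4.09, against -0.00 over all genes tested. Cxcl9 and Ccl8 were too sparse for the test. Both R241E libraries lay above all WT libraries for 9 of the 10 members, an arrangement seen in 16.1% of the 22566 genes with a UMI in microglia.

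Markers of other classes moved with genotype in microglia too. The monocyte or neutrophil list summed to 737 and 639 CPM in R241E, against 559, 552 and 569 CPM in WT, and the oligodendrocyte list to 253 and 369 CPM, against 162, 167 and 182 CPM. The lymphocyte list was at 25.4 and 13.1 CPM, against 7.68, 7.61 and 10.5 CPM, and the mural list at 30.8 and 32.5 CPM, against 16.2, 20.8 and 22.8 CPM. Each gene of these 4 lists had a UMI in microglia. The macrophage list was lower, at 97.7 and 146 CPM, against 217, 212 and 241.1 CPM. So was the endothelial list, at 29.2 and 29.8 CPM, against 40.4, 38.3 and 41.4 CPM. The part of these classes in the members' levels in microglia was not tested. Leaving out nuclei with a lymphocyte marker UMI, as given with Ccl5, cannot remove lymphocyte RNA from the other nuclei.

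**Figure D1:**
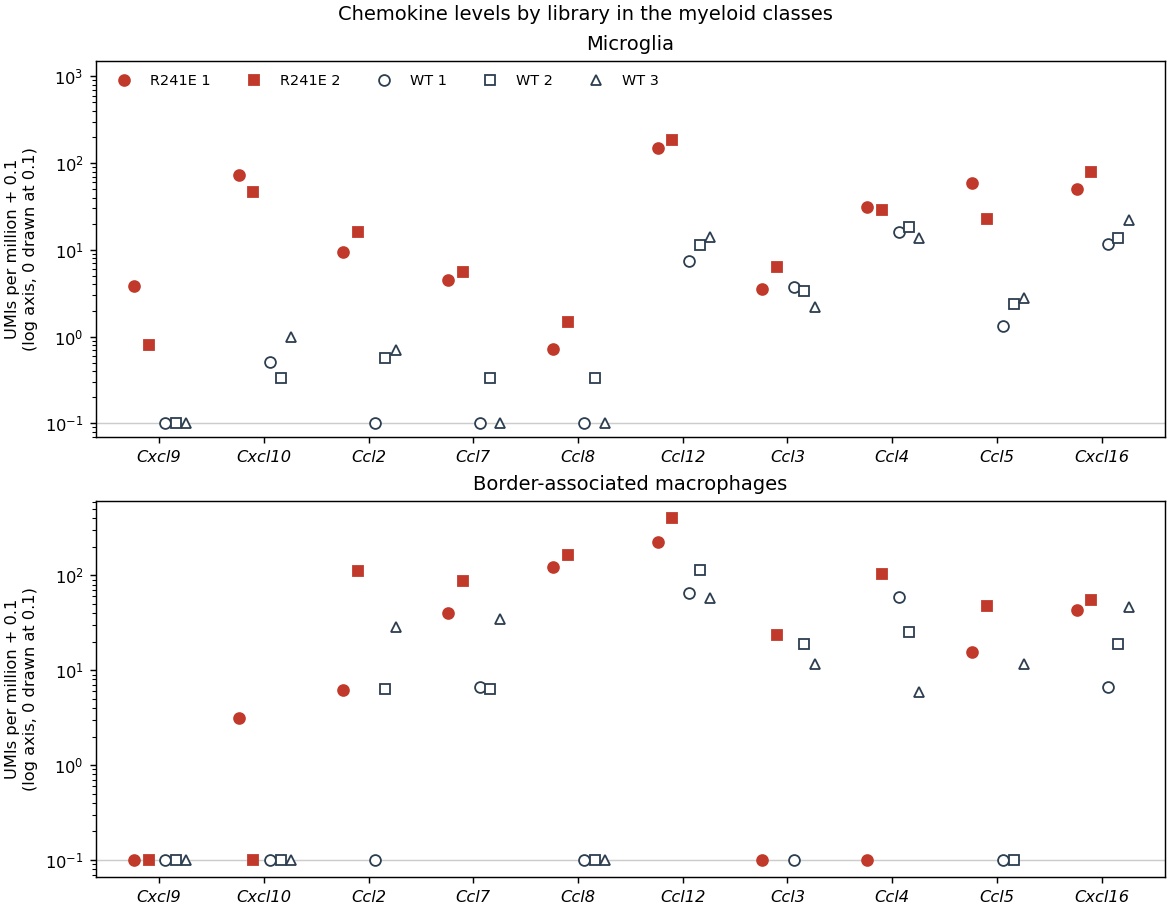
Level of each member in each library, in CPM on a log axis with 0.1 added so that a count of 0 sits on the grey line, in microglia (top) and border-associated macrophages (bottom). Filled symbols are R241E and open symbols are WT. In microglia the R241E symbols of Ccl12 (149 and 186 CPM) lie above the WT symbols (7.28 to 14.1 CPM), and those of Ccl3 overlap them. In macrophages all 3 WT symbols of Ccl8 lie on the line.

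Cxcl10, the Cxcr3 ligand also known as IP-10, was at 71.9 and 46.4 CPM in R241E, against 0.404, 0.231 and 0.900 CPM in WT. The WT values rested on 5 UMIs in all and those of R241E on 229 and 67. Cxcl10 was 6.82 higher on the log2 scale (SE 0.36, adjusted p = 4.05e-09), the steepest difference among the members tested. Cxcl9, its neighbour with the same receptor, had 12 and 1 UMIs in R241E microglia and none in WT. Against a floor of 3 UMIs over the WT group this is at least 9.50-fold higher, and it rests mainly on R241E replicate 1.

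Ccl12, a mouse monocyte chemoattractant that acts on Ccr2, was at 149 and 186 CPM in R241E, against 7.28, 11.3 and 14.1 CPM in WT microglia. The groups did not overlap, and the WT level was above 0 in every library. The difference was 3.86 on the log2 scale (SE 0.18, adjusted p = 8.4e-10). Ccl2, the classical monocyte chemoattractant, was at 9.42 and 15.9 CPM in R241E, against 0, 0.461 and 0.60 CPM in WT. Its difference was 4.77 (SE 0.57, adjusted p = 4.02e-05), over a WT group with 4 UMIs in all. Ccl7, another Ccr2 ligand, had 14 and 8 UMIs in R241E and 1 UMI in WT microglia. The pooled ratio was 48.2, with a 95% counting interval from 7.79 to 1989.8 that covers counting error only, and the adjusted p was 0.000868. Ccl8, which in mice acts on Ccr8, was near absent from microglia, with 2 and 2 UMIs in R241E and 1 in WT.

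Cxcl16, a chemokine made as a membrane protein that binds Cxcr6 and is released by the sheddase Adam10, was detected in every library, at 50.3 and 78.9 CPM in R241E, against 11.7, 13.6 and 22.2 CPM in WT. It was 1.94 higher on the log2 scale (SE 0.24, adjusted p = 4.67e-05). Ccl5, a chemokine that T cells also make, was at 59.4 and 22.8 CPM in R241E, against 1.21, 2.31 and 2.70 CPM in WT. The R241E libraries differed from each other, and both lay above WT, with a difference of 4.31 (SE 0.39, adjusted p = 2.11e-06). Among microglia without any UMI of the 10 lymphocyte markers, Ccl5 was at 56.8 and 21.7 CPM in R241E, against 1.24, 2.37 and 2.46 CPM in WT. Lymphocyte RNA in nuclei without a marker UMI is not removed this way, and its part was not tested. In the pooled non-immune classes Ccl5 was at 19.9 and 7.75 CPM in R241E, against 3.11, 2.04 and 16.5 CPM in WT.

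Ccl4, also called MIP-1 beta, was at 30.8 and 28.4 CPM in R241E, against 16.2, 18.4 and 13.5 CPM in WT. The groups did not overlap and the difference was 0.86 on the log2 scale (SE 0.20, adjusted p = 0.0116). Of the Ccl4 UMIs of R241E replicate 1, 53.1% lay in 5 nuclei. When each nucleus with a UMI was counted once, Ccl4 differed by -0.04 (adjusted p = 0.962), and without R241E replicate 1 it differed by 0.78 (adjusted p = 0.187). Ccl3, also called MIP-1 alpha, was at 3.46 and 6.23 CPM in R241E, against 3.64, 3.23 and 2.10 CPM in WT. Its groups overlapped and its difference was 0.56 (SE 0.47, adjusted p = 0.583).

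**Figure D2:**
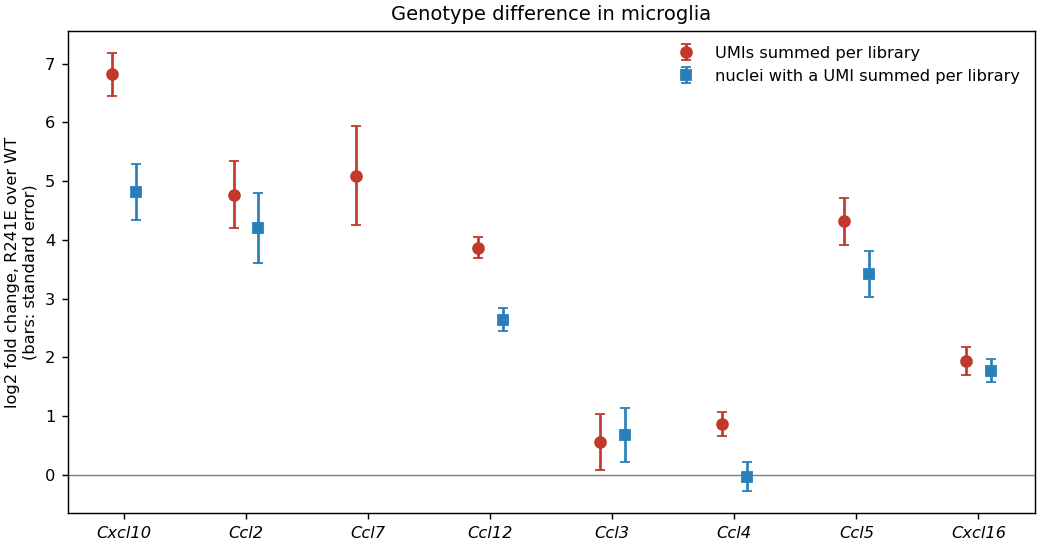
Difference between R241E and WT microglia for the 8 members tested, as log2 fold change with its standard error, from UMIs summed per library (circles) and from the number of nuclei with a UMI summed per library (squares). Ccl4 lies at 0.86 by UMIs and at -0.04 by nuclei, Cxcl10 lies at 6.82 and 4.81, and Ccl7 did not pass the filter by nuclei.

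Counting each nucleus once separates more nuclei with a transcript from more transcripts per nucleus. By that count Cxcl10 was higher by 4.81, Ccl2 by 4.21, Ccl5 by 3.42, Ccl12 by 2.64 and Cxcl16 by 1.77 on the log2 scale, and these 5 members were called. Single nuclei held many transcripts of 1 or a few members. In R241E replicate 1, a microglial nucleus with 2418 UMIs held 78 of Ccl12, another held 32 of Cxcl10, 22 of Ccl12 and 18 of Ccl4, and another held 39 of Cxcl10. For each gene, the 5 nuclei with most of it held 51.5% of the microglial Cxcl10 UMIs of that library and 32.3% of the Ccl12 UMIs, but 12.5% of the Cxcl16 UMIs. Cxcl16 was spread more evenly over nuclei of that library than Cxcl10, Ccl12 or Ccl4.

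Each microglial nucleus was thinned to 1000 UMIs so that depth could not set the share of nuclei with a transcript. At least 1 member was then detected in 18.0% and 19.5% of R241E microglia and in 3.32%, 4.84% and 5.62% of WT microglia. The group means of 18.7% ± 1.08 (SD, n = 2) and 4.59% ± 1.17 (SD, n = 3) differed by 14.1 percentage points (two-sided exact permutation test, p = 0.1, the smallest that 2 against 3 libraries can give). Without thinning the means were 34.4% and 9.77%. In the pooled non-immune classes the thinned share was 4.18% and 4.62% in R241E and 0.958%, 1.60% and 1.97% in WT. This pool is not a pure measure of free RNA, since fibroblasts had Cxcl16 of their own and mural cells held 12 Cxcl10 UMIs in R241E. In neurons alone the share was 3.70% and 4.38% in R241E. The pool's median depth before thinning was 4136.5 and 2403 UMIs in R241E, against 3873, 3383 and 2382.5 UMIs in WT.

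Ccl12 was the member detected in most R241E microglia, in 7.62% and 9.84% of them after thinning and in 0.775%, 1.04% and 1.44% of WT microglia. In non-immune nuclei of the R241E libraries it was detected in 0.272% and 1.75%. Cxcl16 was detected in 5.62% and 5.82% of R241E microglia and in 0.775%, 1.52% and 1.95% of WT microglia. R241E fibroblasts reached a similar share, 4.94% and 5.04%, while R241E neurons had 0 of 108 and 0 of 137 nuclei, which allows exact upper limits of 3.36% and 2.66%. The share of Ccl5 was closer to that of the non-immune pool, with 5.02% and 1.61% of R241E microglia against 2.36% and 0.637% of R241E non-immune nuclei. Cxcl10 was detected in 1.91% and 2.81% of R241E microglia and Ccl4 in 1.81% and 1.81%, against 1.44%, 1.59% and 1.59% for Ccl4 in WT. A nucleus with 3 or more members was seen 28 and 21 times in R241E microglia and 1, 3 and 0 times in WT microglia, before thinning, and the most in 1 nucleus was 6 members.

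The microglial cluster with the most Cxcl10 UMIs was singled out for that reason. It was led by the interferon-inducible genes Ifi207, Ifi204 and Ifi213. This cluster held 20.9% and 15.8% of R241E microglia and 0.432%, 0.340% and 0.345% of WT microglia, so the values within it are a description without a test. It held 97.4% and 94.0% of the microglial Cxcl10 UMIs of the R241E libraries, the value it was picked by. For Ccl12 its part was 75.7% and 50.6%, for Ccl2 80.0% and 69.6%, for Ccl4 78.6% and 56.1%, and for Ccl5 58.7% and 84.8%. For Cxcl16 its part was 35.6% and 30.7%.

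Outside that cluster, Ccl12 was at 47.4 and 114 CPM in R241E, against 7.30, 9.71 and 12.04 CPM in WT. Cxcl16 was at 42.4 and 68.0 CPM in R241E, against 11.8, 13.6 and 22.3 CPM in WT. For both, the R241E libraries lay above all WT libraries there. Cxcl10 outside the cluster was at 2.47 and 3.44 CPM in R241E, where the non-immune pool held 3.01 and 3.87 CPM, and at 0.406, 0 and 0.301 CPM in WT. Ccl5 outside the cluster was at 32.1 and 4.30 CPM in R241E, where non-immune nuclei held 19.9 and 7.75 CPM, so it lay above that level in 1 library and below it in the other. Inside the cluster, Ccl5 was at 147 and 98.9 CPM. Ccl4 outside the cluster was at 8.65 and 15.5 CPM in R241E, against 16.2, 18.5 and 13.2 CPM in WT, with R241E replicate 1 below all WT libraries.

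**Figure D3:**
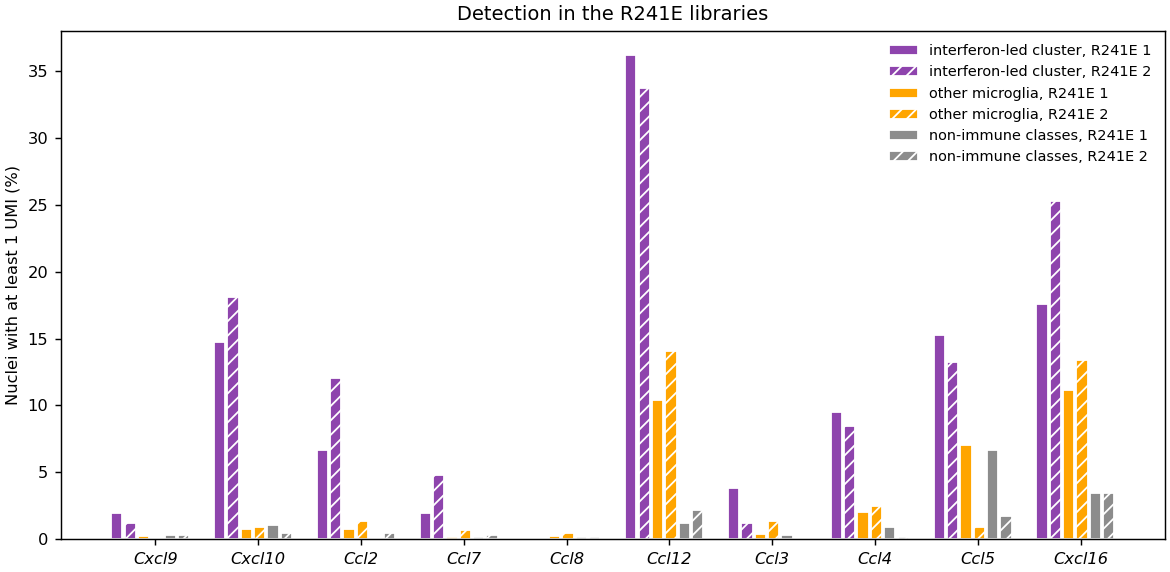
Share of nuclei with at least 1 UMI of each member in the 2 R241E libraries, without thinning, for the microglial cluster with the most Cxcl10, which was led by interferon-inducible genes, the other microglia and the pooled non-immune classes. Plain bars are R241E replicate 1 and hatched bars are R241E replicate 2. Ccl12 and Cxcl16 stand above the non-immune bars in both groups of microglia, while Cxcl10 reached 14.8% and 18.1% in the interferon-led cluster and 0.754% and 0.907% in the other microglia.

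Microglia were also divided by their own interferon-gene UMIs, counted over the 28 interferon genes that the study used, none of which is a member. This division is not independent of the cluster singled out by Cxcl10, where those genes summed to 7843 and 8037 CPM in R241E. The highest sum in another microglial cluster of these libraries was 2179 CPM. Cxcl10 was found in 0 of 165 and 0 of 106 R241E nuclei without an interferon UMI after thinning, which allows shares of up to 2.21% and 3.42% (upper end of the exact 95% binomial interval). With 5 or more interferon UMIs it was found in 7.91% and 14.3%. Ccl12 was found in 4.85% and 4.72% of R241E nuclei without an interferon UMI and in 0.626%, 0.610% and 1.49% of such WT nuclei. It was found in 20.9% and 25.0% of R241E nuclei with 5 or more. Ccl5 was found in 3.64% and 2.83% of R241E nuclei without an interferon UMI and in 11.2% and 5.95% of those with 5 or more. Cxcl16 was found in 6.67% and 3.77% of R241E nuclei without an interferon UMI and in 8.84% and 10.7% of those with 5 or more, intervals that overlap in both libraries.

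**Figure D4:**
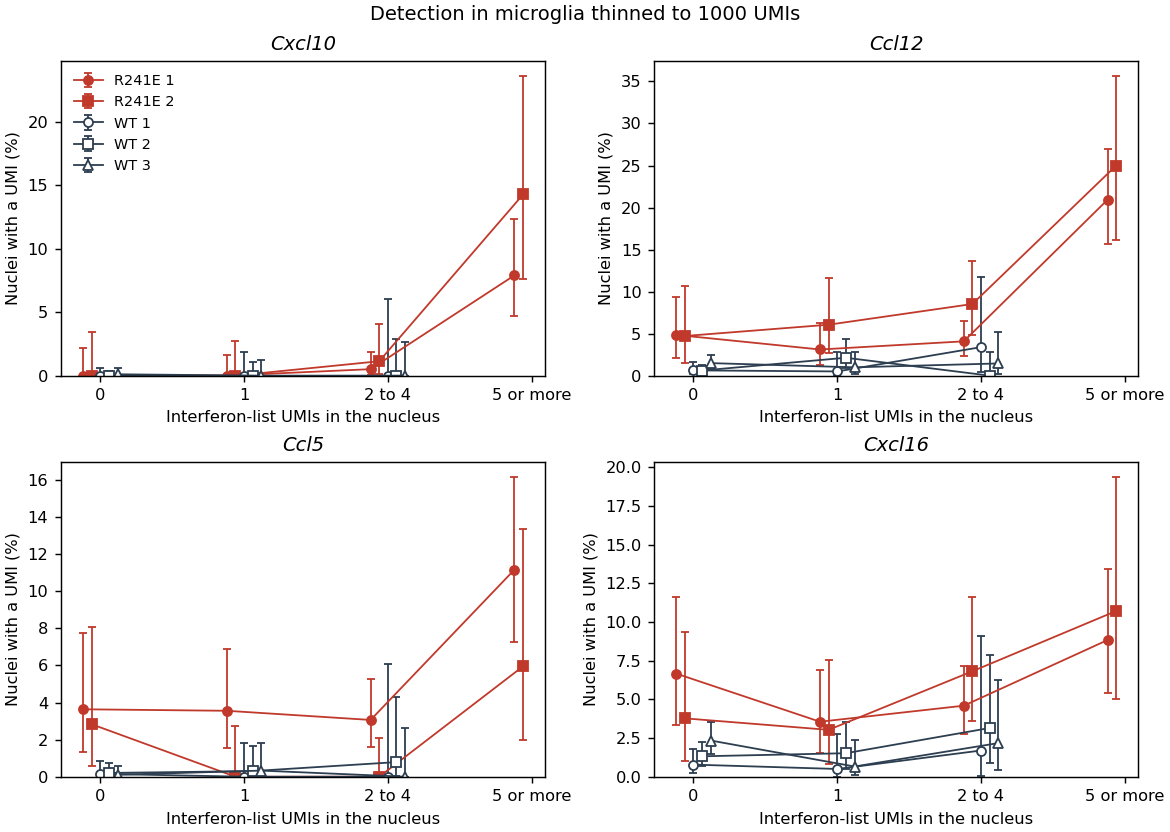
Share of microglia with a UMI of Cxcl10, Ccl12, Ccl5 and Cxcl16, after thinning to 1000 UMIs, by the number of UMIs of 28 interferon genes in the nucleus. Bars are exact 95% binomial intervals per library, and points with under 20 nuclei are left out. Cxcl10 leaves 0 only in nuclei with 2 or more interferon UMIs in the R241E libraries, while Ccl12, Ccl5 and Cxcl16 are already present at 0 interferon UMIs.

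Mean interferon UMIs per thinned R241E nucleus were 17.4 and 15.7 where Cxcl10 was detected and 3.01 and 2.49 where it was not. For Ccl2 they were 13.4 and 10.3 against 3.18 and 2.76, for Ccl12 8.24 and 7.04 against 2.87 and 2.41, and for Cxcl16 4.25 and 4.62 against 3.22 and 2.76. Of the 45 pairs of members, 27 shared more R241E nuclei than their separate rates within libraries would give. The other 18 did not, and 17 of these shared none. At those rates the 17 would share at most 0.969 nuclei each, so 0 is no sign of avoidance. Some of the 27 shared only 1 nucleus. Pairs of other genes were not counted, so the 27 are not read as a trait of the members. Cxcl10 and Ccl12 shared 20 R241E nuclei, where 2.83 would be shared at those rates. Cxcl10 and Ccl2 shared 7 nuclei against 0.387, Ccl3 and Ccl4 shared 4 against 0.217, and Cxcl16 and Ccl12 shared 13 against 7.12. Cxcl16 shared 1 nucleus with Ccl4 against 1.54, and 0 with Ccl2 against 0.969, counts too small to give a direction. These are descriptions over nuclei of 2 mice. The genes whose detection most resembled that of Ccl12, by the log2 ratio of their share in nuclei with and without it over both R241E libraries, were Iigp1 (2.79), Cybb (2.67), Isg15 (2.62), Rsad2 (2.49) and Ifi211 (2.42). For Cxcl16 they were Phf2 (1.70), Zfp830 (1.68), Gm17268 (1.59), Ccdc97 (1.52) and Topbp1 (1.47). The Cxcl16 ratios rest on few nuclei, as with Phf2 in 8.93% of 56 and 10.3% of 29 nuclei with Cxcl16. Both lists are the highest ratios among all genes searched and were not tested. The other members were detected in too few nuclei for this search.

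In R241E border-associated macrophages the most abundant members were Ccl12 and Ccl8. Ccl8 was at 122 and 165 CPM in R241E macrophages, from 40 and 21 UMIs, and no Ccl8 UMI was found in WT macrophages. Against a floor of 3 UMIs over the WT group this is at least 21.8-fold higher (adjusted p = 7.33e-05). Ccl8 was seen in 7.69% and 9.09% of R241E macrophages thinned to 1000 UMIs and in 0 of 54, 0 of 59 and 0 of 78 WT macrophages, which allows shares of up to 6.60%, 6.06% and 4.62%. In R241E non-immune nuclei the thinned share was 0.0908% and 0.159%. Ccl12 was at 224 and 401 CPM in R241E macrophages, against 65.3, 113 and 57.5 CPM in WT macrophages. The groups did not overlap, and the difference was 1.91 on the log2 scale (SE 0.32, adjusted p = 0.0016). When each nucleus was counted once, the difference in Ccl12 was 1.00 (adjusted p = 0.381), and Ccl8 was not tested.

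These were the 2 members that passed the filter in macrophages. Ccl8 passed through its R241E counts alone, so that its call adds nothing to its values. Both were called, and of 3946 genes 0.988% were called and 0.862% were called higher. Ccl7 was at 39.8 and 86.5 CPM in R241E, against 6.53, 6.27 and 34.5 CPM in WT, without overlap, and was not tested. R241E libraries lay above all WT libraries for 8.91% of the 15980 genes with a UMI in macrophages. Ccl2 was at 6.12 and 110 CPM in R241E, against 0, 6.27 and 28.8 CPM in WT, with 11 of the UMIs of R241E replicate 2 in 1 nucleus, which also held 7 of Ccl7. The groups overlapped for Ccl2, and also for Cxcl16, at 42.9 and 55.0 CPM against 6.53, 18.8 and 46.0 CPM. Ccl5 was at 15.3 and 47.2 CPM in R241E, against 0, 0 and 11.5 CPM in WT, from 13 UMIs in all. Ccl4, at 0 and 102 CPM against 58.8, 25.1 and 5.75 CPM, and Ccl3, at 0 and 23.6 CPM against 0, 18.8 and 11.5 CPM, overlapped, and the R241E libraries lay at both ends. Cxcl10 had 1 UMI in all macrophages and Cxcl9 had none.

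The genotype effect was compared between the 2 classes in 1 model with library as a block. Ccl12 changed less in macrophages than in microglia, by -1.95 on the log2 scale (SE 0.38, adjusted p = 0.000125). It was the only member called of the 9 tested, where 0.788% of 10919 genes were called, and the call was lost without R241E replicate 1 (adjusted p = 0.0534), without WT replicate 2 (adjusted p = 0.0788) and when nuclei were counted in place of UMIs (adjusted p = 0.0669). The WT level of Ccl12 was higher in macrophages, at 78.5 ± 29.9 CPM, than in microglia, at 10.9 ± 3.43 CPM (SD, n = 3), without overlap. Of the study's interferon genes, 10 of the 27 tested had a smaller effect in macrophages and none a larger one.

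Outside these classes, 1 member could be tested, Cxcl16 in fibroblasts, and 0 were called by edgeR (1 at an unadjusted p under 0.05), while DESeq2 gave no adjusted p for it. Cxcl16 was at 52.5 and 64.9 CPM in R241E fibroblasts, against 10.7, 9.27 and 29.1 CPM in WT fibroblasts, with a difference of 1.71 on the log2 scale (adjusted p = 0.252). The share of all genes called was 0.0112% in neurons, 0.224% in oligodendrocytes, 0.0% in mural cells (174 of 3862 genes at an unadjusted p under 0.05, and 0 by DESeq2), 0.43% in astrocytes and 0.0707% in fibroblasts. Cxcl10 had 11 UMIs in 1 WT fibroblast nucleus of replicate 1 and 5 in another of replicate 3. Members in the classes too small for a test are given as levels.

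**Figure D5:**
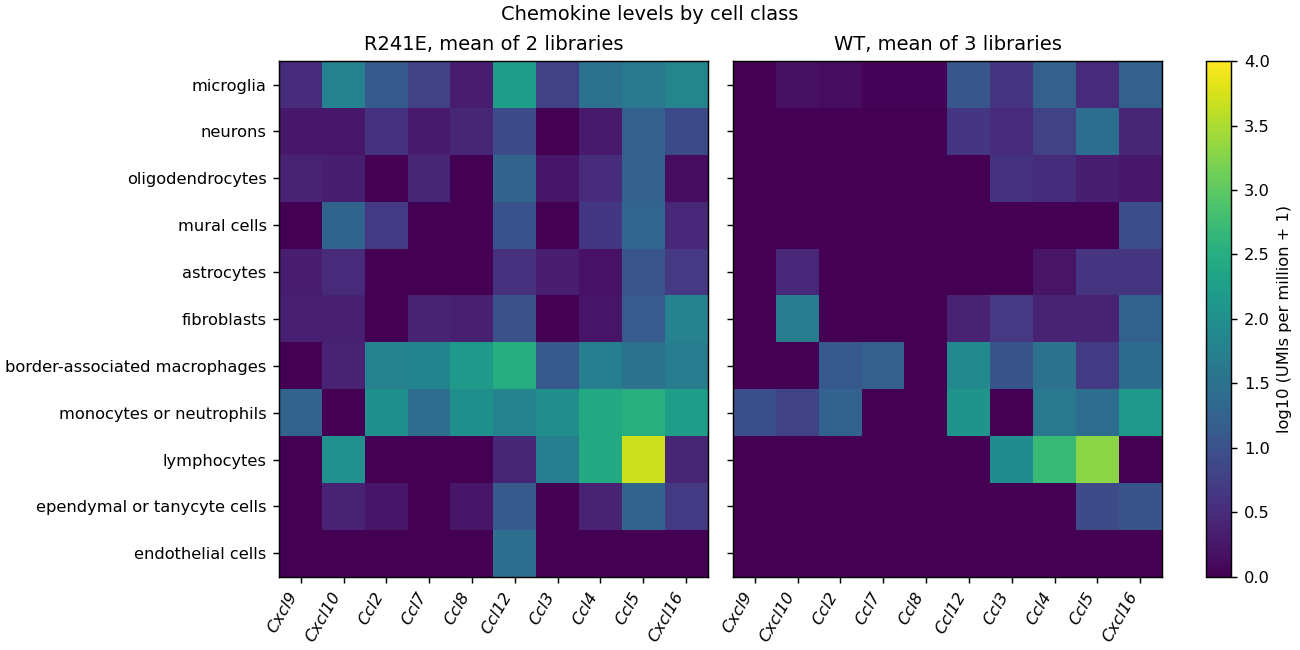
Mean level of each member in each named class but the pituitary cells, as log10 of CPM plus 1, for the R241E libraries (left) and the WT libraries (right). Ccl5 in lymphocytes is the brightest field in both panels, and the microglial row is brighter in R241E for Cxcl10, Ccl12, Ccl5 and Cxcl16.

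Lymphocytes were the main source of Ccl5. In R241E they held 83.3% of all Ccl5 UMIs, where microglia held 8.96%. Lymphocyte Ccl5 was at 5857 and 3924 CPM in R241E, against 1531, 563 and 3959 CPM in WT, with overlap and with 120 and 35 lymphocyte nuclei in R241E against 3, 7 and 28 in WT. Lymphocytes also held 40.2% of Ccl4 and 39.5% of Ccl3 UMIs in R241E. Nearly all of these lymphocyte UMIs belonged to R241E replicate 1. Its lymphocytes had 539 CPM of Ccl4, where those of replicate 2 had 22.6 CPM. Lymphocyte Ccl3 reached 102 CPM in replicate 1 and was absent from replicate 2. Over both R241E libraries, microglia held 80.1% of Ccl12, 77.3% of Cxcl10 and 65.2% of Cxcl16 UMIs, and macrophages held 61.0% of Ccl8 and 38.7% of Ccl7 UMIs. These shares depend on the nuclei sorted, 1006 and 524 microglia and 105 and 44 macrophages in R241E. By mean CPM in R241E, Ccl12 was higher in macrophages, at 312, than in microglia, at 167. Cxcl10 (1.53 against 59.1) and Cxcl16 (49.0 against 64.6) were lower in macrophages. Monocytes or neutrophils held 31.0% of Ccl8, with 30 of their 31 UMIs in 1 nucleus. In R241E replicate 1, lymphocytes held 58 Cxcl10 UMIs, 26 of them in 1 nucleus, and in replicate 2 they held 1. The class of monocytes or neutrophils was 1 cluster, led by the MHC class II genes Cd74, H2-Aa, H2-Eb1 and H2-Ab1, ahead of Ccr2, Lyz2 and its markers S100a8 and S100a9. It had Cxcl16 at 190 and 147 CPM in R241E, against 127, 204 and 106 CPM in WT, with overlapping groups.

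Of 27 other chemokine ligands in the files, 5 were tested in microglia, and edgeR called 0 (1 at an unadjusted p under 0.05, Ccl25) and DESeq2 0. The most abundant were Ccl25 at 53.7 CPM, Ccl6 at 15.2 CPM and Ccl9 at 8.82 CPM over the 5 libraries. Other ligands led elsewhere, with Pf4, the platelet factor, at 179 CPM in macrophages, Xcl1 at 495 CPM in lymphocytes and Cxcl12 at 761 CPM in endothelial cells. Of 23 receptors, 10 were tested in microglia, and edgeR called 0 (2 at an unadjusted p under 0.05, Ccr2 and Ccr3) and DESeq2 0. Cx3cr1, the fractalkine receptor of microglia, was at 1234 CPM and Ccr9, the receptor of Ccl25, at 27.1 CPM over the 5 libraries. Ccr2, the receptor of Ccl2, Ccl7 and Ccl12, had its highest level in monocytes or neutrophils, at 996 CPM, and Cxcr3 and Cxcr6, the receptors of Cxcl10 and Cxcl16, had theirs in lymphocytes, at 190 and 591 CPM.

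Among cytokines, transcription factors and enzymes linked to chemokine expression, 28 of 31 genes were tested in microglia and 8 were called, all higher in R241E, with a median log2 fold change of 0.25 over the list. Irf7, a factor of the interferon response, was higher by 3.53 on the log2 scale, and Stat2, Irf1 and Irf9 by 2.35, 1.32 and 1.10. Ifnb1, which encodes interferon beta, was at 4.71 and 4.84 CPM in R241E, against 0 in all WT libraries (adjusted p = 0.000794). Ifnb1 passed the filter through its R241E counts alone, so that its call adds nothing to its values. It was filtered out without R241E replicate 1 and when nuclei were counted. Tnf, an NF-kB-driven cytokine, was higher by 1.74 (adjusted p = 0.0477) and Nfkbia, the NF-kB inhibitor and target, by 0.98 (adjusted p = 0.0282), and both calls were lost in several of the alternative fits. Adam10, the sheddase of Cxcl16, differed by 0.11 (adjusted p = 0.582). All 28 interferon genes were higher, with a median of 4.18. The study chose that list as a marker of the interferon response. Of the immediate early genes, a sign of handling, 1 of 7 tested was called, Junb at 0.43 (adjusted p = 0.0358), and their sum was 279 and 315 CPM in R241E and 258, 232 and 269 CPM in WT microglia. The part of handling in the members' levels was not tested.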

How the data were processed

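Nuclei of 5 mouse brain samples were profiled by snRNA-seq with 10x Genomics 3′ chemistry (v3.1). The deposited matrices held raw UMI counts for each nucleus. The authors made them with Cell Ranger 7.0.0 on assembly mm10. Whether intronic reads or strand entered the counts is not given in the sources used here. Groups were taken from the sample titles, and 0 columns were left unused.

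Following the study's limits, nuclei with at least 200 and under 4500 genes, under 10000 UMIs and under 5% mitochondrial UMIs were kept. These upper limits were the sole treatment of doublets. Nuclei were clustered (scanpy 1.11.5 under Python 3.11.15, 3000 variable genes less the members, 30 components, 20 neighbours, Leiden resolution 1) and a cluster took the class with the highest mean log2 fold of its markers, given 3 markers in 10% of nuclei and a mean of at least 2. Because nuclei of 1 mouse are not replicates, UMIs were added up over each class of a library. The study itself used MAST on single nuclei. Classes with 20 nuclei in every library were tested with edgeR 4.0.16 in R 4.3.3 (quasi-likelihood test, TMM, filterByExpr, genotype as the only term, library as a block for the comparison between classes), with Benjamini-Hochberg adjustment over all genes tested and calls at an adjusted p under 0.05. Shares were compared after thinning nuclei to 1000 UMIs, with exact Clopper-Pearson intervals (95%), which like the floor of 3 UMIs cover counting error only. The scripts were tested on simulated counts.

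Named were all members, every gene of the other lists that was called in microglia, and the 3 receptors and 3 other ligands with the highest mean CPM, besides those leading another class. Of these, 2 genes are not reported here. Genes named for likeness were the 5 in at least 2% of R241E microglia of each library with the highest mean log2 ratio of shares, each plus 0.01, for members in at least 20 nuclei per R241E library. Ccr3, Ccrl2 and single nuclei were named after their values were seen. The members and lists were chosen with earlier results of these data known. Alternatives were DESeq2 1.42.0, its size factors, no low-count filter, a replicate block, lifted upper limits, members kept in the clustering, nuclei with lymphocyte markers left out, 500 UMIs or no thinning, each library left out and, chosen after seeing the data, nuclei counted in place of UMIs. Libraries came from separate mice, so p-values measure the spread between mice.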

Additional observations from a re-analysis of the deposited data

Results flagged for a closer look

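The genotype effect on Ccl12 differed between classes by a test of the difference itself, and was -1.95 in border-associated macrophages relative to microglia on the log2 scale (adjusted p = 0.000125). The call was lost without R241E replicate 1 (adjusted p = 0.0534), without WT replicate 2 (adjusted p = 0.0788) and when nuclei were counted (adjusted p = 0.0669).

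Monocytes or neutrophils, a cluster led by MHC class II genes, entered no test, since WT replicate 1 held 18 such nuclei, and their level of 3 members in R241E was above that of WT. The mean of the R241E libraries was 90.9 CPM for Ccl3, from 78.7 and 103 CPM against 0 in all 3 WT libraries. In each R241E library a single nucleus held all of these Ccl3 UMIs, 12 and 7. For Ccl4 the mean was 265 CPM, from 426 and 103 CPM against 102, 15.7 and 0 CPM. The nucleus with 12 Ccl3 UMIs also held 62 of Ccl4, 28 of Ccl2 and 8 of Ccl7, and without it Ccl4 in R241E replicate 1 was at 20.1 CPM. For Ccl5 the mean was 319 CPM, from 256 and 383 CPM against 0, 78.6 and 0 CPM, with 31 of 39 UMIs of R241E replicate 1 in 1 nucleus and 18 of 26 UMIs of R241E replicate 2 in another.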

How the results depend on the processing

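Over 14 fits, the reported one included, Cxcl10, Ccl12, Ccl5, Ccl2 and Cxcl16 were called higher in R241E microglia in all, and Ccl7 in the 12 that tested it, being filtered out without R241E replicate 1 and when nuclei were counted. Ccl4 reversed to -0.035 when nuclei were counted in place of UMIs, and its call was lost with DESeq2 (adjusted p = 0.0545) and without R241E replicate 1. Members called in microglia ranged from 5 to 8. Cxcl10, Ccl2, Ccl7 and Ccl5 passed the filter through their R241E counts, so their repeated calls add nothing to their values. In macrophages 1 member was called by DESeq2, which gave no adjusted p for Ccl8, and 0 when nuclei were counted. In other classes 2 were called with no low-count filter, Cxcl10 in fibroblasts and Ccl5 in oligodendrocytes. The number of receptors called was 1 with no filter (Ccrl2), 1 when nuclei were counted (Cx3cr1) and 0 to 1 with each library left out. For the difference between classes, 0 members were called when nuclei were counted, and 0 to 2 with each library left out, the 2 without R241E replicate 2 being Ccl12 and Ccl4. Tnf was called in 7 of the 14 fits and Nfkbia in 11. The other calls that changed, those of Ccl12 in macrophages and between classes, are given with their results.

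The number of genes called in microglia, 1182, was 2108 with the replicate block and 536 without R241E replicate 1, 769 without WT replicate 2. In macrophages it was 39, and 8 with DESeq2, 71 with no filter, 14 when nuclei were counted, 21 without R241E replicate 1, 6 without WT replicate 2 and 22 without WT replicate 3. For the difference between classes it was 86, and 35 with DESeq2, 48 when nuclei were counted, 33 without R241E replicate 1 and 53 without WT replicate 1. In the other classes the calls were few and shifted more, as in neurons, with 1 call and 96 with DESeq2. The sample titles give the replicate numbers as mouse numbers and state no pairing. Same-numbered libraries deviated together by 0.109 and -0.0337. The deviations of 2 R241E libraries mirror each other, so this check cannot exclude a shared batch. With the block 7 members were called in microglia and 2 in macrophages. No block could be fitted for the difference between classes, which has library as a block, or for the shares. The 3 UMIs that a count of 0 allows equal 0.692 to 2.08 CPM in microglia of 1 library, so a count of 0 does not exclude levels below that.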
